A study of Mus musculus with 21 samples.

Results

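Among tumors driven by activated Neu (NeuNT) in the mouse mammary gland, 3 control tumors carried a block of very high *Cdk12* and *Med1* RNA, and 5 did not. These 8 of the 21 tumors of the series were compared here. They were selected on *Cdk12* in CPM, read counts scaled to library size with TMM factors: N-8, N-9 and N-17 lay above 1000 CPM (raised), and N-1, N-3, N-4, N-6 and N-7 lay below 300 CPM (not raised). The rule left out the ninth control, N-15, which like N-17 lacks the *Gata4* loxP allele. The 12 tumors of the RhoC cohort, which add a RhoC allele to NeuNT and Cre, served only as a baseline, and some of them share a mouse (R-6 with R-7, and R-13, R-14, R-15 and R-16). N-8, N-9 and all 5 not raised tumors had the genotype Gata4(loxP/+), FloxNeoNeuNT, MMTV-CreNLST, whereas N-17 had FloxNeoNeuNT and MMTV-CreNLST without the *Gata4* loxP allele. All tumors therefore shared the NeuNT cDNA, targeted to the *Erbb2* locus behind a stop cassette, and a Cre transgene restricted to the mammary gland. The study states that this Cre line appears active in fewer mammary cells, or more weakly, than other MMTV-Cre lines. Only virgin females were used, each control tumor came from its own mouse, and the age of each mouse was not given in the sources used here. By the histology listed for the tumors, N-8 was a poorly differentiated adenocarcinoma like N-3 and N-6, N-9 was a solid nodular carcinoma like N-7, N-1 was a spindle cell tumor, N-4 was a complex adenocarcinoma, and none was listed for N-17.

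*Cdk12* encodes a kinase that works with cyclin K to phosphorylate the tail of RNA polymerase II during elongation, and it is known for sustaining the expression of long DNA repair genes. *Med1* encodes a subunit of Mediator, the complex that links transcription factors to the polymerase, and is known as a coactivator of nuclear receptors in the mammary gland. Both genes lie near *Erbb2*, a receptor tyrosine kinase gene, and are often gained together with it in breast cancer. Only RNA was measured here, and DNA copy number was not analysed.

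The sequences around the starts of these 3 genes are shown because the genes lie close together and yet differ in how they divide the tumors. Each is 300 bases, from 250 before to 50 after the start of the gene, taken from RefSeq on GRCm38.p6. The *Med1* stretch is chr11:98192857-98193156 (minus strand), the *Cdk12* stretch is chr11:98203055-98203354 (plus strand) and the *Erbb2* stretch is chr11:98412234-98412533 (plus strand). Capitals mark GGGCGG and CCAAT on either strand.
Med1: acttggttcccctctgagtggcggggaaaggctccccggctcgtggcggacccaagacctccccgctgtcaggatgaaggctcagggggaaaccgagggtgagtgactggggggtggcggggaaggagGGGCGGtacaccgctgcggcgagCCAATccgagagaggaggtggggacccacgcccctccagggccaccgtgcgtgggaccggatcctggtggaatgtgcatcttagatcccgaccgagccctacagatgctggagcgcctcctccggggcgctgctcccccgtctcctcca
Cdk12: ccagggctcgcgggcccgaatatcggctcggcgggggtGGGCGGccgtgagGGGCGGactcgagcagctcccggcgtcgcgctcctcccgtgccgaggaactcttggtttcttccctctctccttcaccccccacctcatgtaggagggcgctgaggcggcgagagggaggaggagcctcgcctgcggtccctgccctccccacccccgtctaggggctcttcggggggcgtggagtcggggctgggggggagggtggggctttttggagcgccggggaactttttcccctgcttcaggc
Erbb2: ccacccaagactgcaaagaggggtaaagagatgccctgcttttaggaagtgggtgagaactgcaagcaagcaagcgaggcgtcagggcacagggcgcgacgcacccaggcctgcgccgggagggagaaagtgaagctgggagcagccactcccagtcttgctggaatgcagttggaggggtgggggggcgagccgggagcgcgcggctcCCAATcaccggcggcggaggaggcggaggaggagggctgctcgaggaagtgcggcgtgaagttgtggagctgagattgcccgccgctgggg

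The *Med1* stretch held 1 GGGCGG and 1 CCAAT, the *Cdk12* stretch held 2 GGGCGG and no CCAAT, and the *Erbb2* stretch held 1 CCAAT and no GGGCGG. None of them held TATAAA. Of 32851 promoters of the same length, 35.7% held GGGCGG, 37.4% held CCAAT and 13.6% held TATAAA. The G and C content was 68.3%, 71.3% and 66.0%, beside a median of 52.7% over all promoters. A match of letters is a description and not a binding site.

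*Cdk12* (ENSMUSG00000003119.14, chromosome 11 from 98203059 to 98278504 on GRCm38) was at 3427 CPM in N-8, 2346 in N-9 and 2496 in N-17. It was at 205 CPM in N-1, 138 in N-3, 142 in N-4, 129 in N-6 and 146 in N-7. The tumors nearest to the thresholds were thus N-9 among the raised and N-1 among the not raised, and no tumor of the series lay between them. N-15 was at 148 CPM and the RhoC tumors lay between 108 and 152 CPM. The means were 2756 ± 585 CPM (SD, n = 3) and 152 ± 30.3 CPM (SD, n = 5), an 18.1-fold difference that the choice of tumors fixed and that was not tested.

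*Med1* (ENSMUSG00000018160.15, chromosome 11 from 98152154 to 98193293) was not used to choose the tumors but lies next to *Cdk12*, so it is also given without a test. It was at 6393 CPM in N-8, 4326 in N-9 and 3015 in N-17. The not raised tumors had 268 CPM in N-1, 182 in N-3, 143 in N-4, 129 in N-6 and 188 in N-7, while N-15 had 135 and the RhoC tumors had 116 to 166 CPM. The raised mean was 25.2-fold higher. Relative to gene length, in the FPKM values that the authors deposited, *Med1* stood above *Cdk12* in each of the 8 tumors. The *Med1* level was 731 FPKM in N-8, 485 in N-9 and 339 in N-17, and the *Cdk12* level was 292, 196 and 209 FPKM in the same tumors.

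*Erbb2* itself did not divide the groups. It was at 2723 CPM in N-8, 805 in N-9 and 1443 in N-17. The not raised tumors were at 963 CPM in N-1, 1705 in N-3, 1166 in N-4, 2566 in N-6 and 599 in N-7. N-15 was lowest of all tumors at 57.9 CPM, and the RhoC tumors lay between 255 and 1850 CPM. Reads of the NeuNT cDNA and of the native gene were not told apart.

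**Figure D1:**
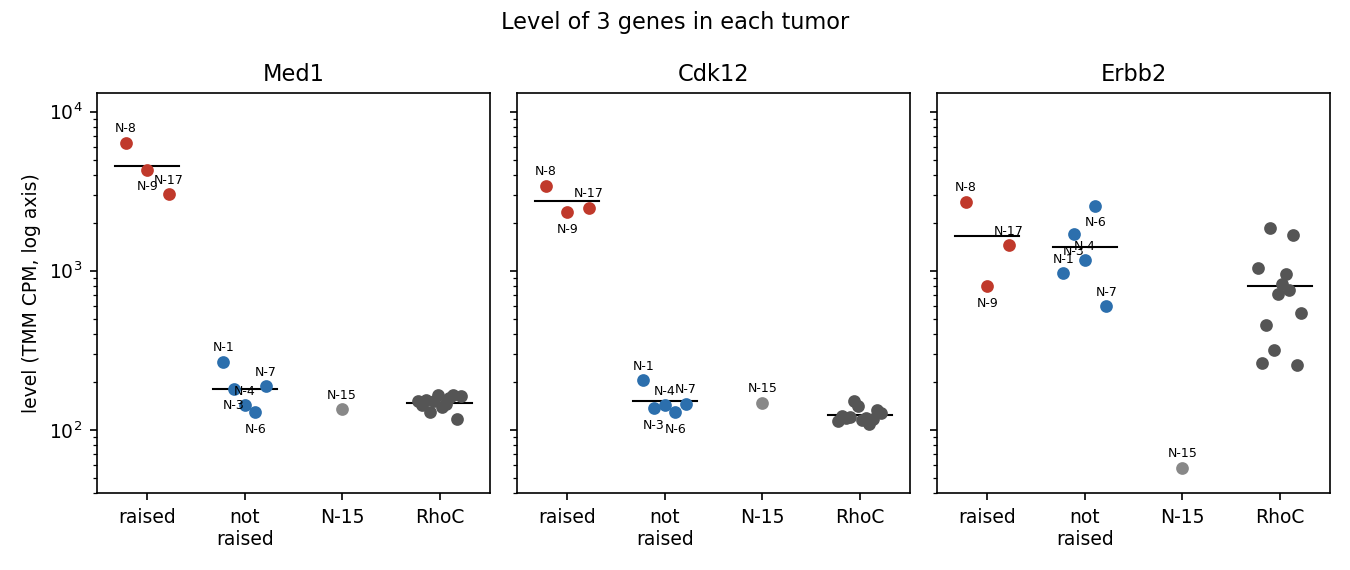
Level of *Med1*, *Cdk12* and *Erbb2* in each tumor as TMM-normalized CPM on a log axis, with points for single tumors and lines for group means. For *Cdk12* the 3 raised tumors sit between 2346 and 3427 CPM and the 5 not raised tumors between 129 and 205 CPM, while for *Erbb2* the groups overlap.

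Of 20528 genes tested, 267 lay on chromosome 11 within 5 Mb of *Erbb2* (the window), and 13 of these (4.87%) were higher in all 3 raised tumors than in all 5 not raised tumors. This share was 1.48% among the 20261 genes outside the window. In the window 2 genes (0.749%) were lower in all raised tumors, beside 0.859% outside. Genes of the window share the readout that chose the tumors, so nothing is read from these shares, and the values below are descriptions.

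Of these 13 genes, 7 also differed at least 4-fold in mean level: *Fbxl20*, *Med1*, *Cdk12*, *Gm20644*, *Cnp*, *Dhx58* and *Gfap*. The first 4 are neighbours. This count depended on the tumors: it was 27 without N-9, 13 without N-1, 11 without N-7 and 11 without N-17, and 5 with N-15 among the not raised tumors, which removed *Cnp* and *Dhx58*. *Med1*, *Cdk12*, *Fbxl20* and *Gm20644* were in the count in each of these settings. *Gm20644* (chromosome 11 from 98285382 to 98287444), a noncoding transcript just beyond the end of *Cdk12*, was at 3.27, 8.69 and 3.09 CPM in N-8, N-9 and N-17 and at no more than 0.254 CPM in a not raised tumor. *Fbxl20* (from 98082556 to 98150403), an F-box protein gene, was at 4125 CPM in N-8 and 1418 in N-17 but only at 229 in N-9, against 183 in N-1 and 77.1 to 106 in the other not raised tumors. The stretch that was raised many-fold in all 3 tumors therefore held *Med1*, *Cdk12* and *Gm20644*, and *Fbxl20* was its near edge in N-9. On the other side *Ppp1r1b*, a phosphatase inhibitor gene between *Cdk12* and *Erbb2*, overlapped: it was at 158, 21.5 and 77.5 CPM in the raised tumors and between 0.683 and 525 CPM in the others.

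The 3 raised tumors differed in how far the block reached. To map it, each tumor was compared with the median of the RhoC tumors over the 171 tested window genes with a median of at least 3 CPM, of which 42 lay within 1.2 Mb of *Erbb2*. The 4-fold limit and the distance of 1.2 Mb were chosen after seeing the data. N-8 had 31 of the 42 genes at 4-fold or more, N-17 had 26 and N-9 had 11. The not raised tumors had 10 in N-1, 7 in N-7, 5 in N-3, 5 in N-6 and 4 in N-4. N-15 had 2, *Epop* and *Krt23*, and no RhoC tumor had more than 3. The counts include genes apart from the stretch around *Erbb2*. These were *Krt23* in N-8, N-1, N-3 and N-7, and also *Srcin1* and *Rapgefl1* in N-1.

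In N-17 the 26 genes were all the mapped genes from *Socs7* to *Med24* except *Erbb2*, which RhoC tumors also express highly. It included *Lasp1*, an actin-binding protein gene, at 6604 CPM, whereas the other raised tumors had 322 CPM in N-8 and 135 in N-9. It also included *Rpl23*, a ribosomal protein gene, at 2120 CPM against 144 and 216 CPM. N-8 had neither of these at 4-fold but was raised on both sides of them. Its *Mllt6* level, a chromatin reader gene, was 9253 CPM against 3642 in N-17 and 161 in N-9. *Stac2* was at 6969 CPM in N-8 and 6752 in N-17, and at 276 in N-9, where it lay among the not raised tumors (52.6 to 374 CPM). *Rpl19* was at 3047 CPM in N-8 and 1332 in N-17, against 108 in N-9 and 83.2 to 138 in the not raised tumors.

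Past *Med24*, N-8 alone of the 8 tumors was raised at *Msl1*, *Casc3*, *Wipf2* and *Cdc6*. *Thra*, a thyroid hormone receptor gene just before them, was at 891 CPM in N-8, 13.5 in N-9 and 182 in N-17, against 19.6 to 70.7 CPM in the not raised tumors. *Msl1*, a gene of a histone acetyltransferase complex, was at 4534 CPM in N-8 and at 92.5 and 96.0 in N-9 and N-17. *Cdc6*, a replication licensing gene, was at 595 CPM in N-8 and 11.2 and 8.90 CPM in the same tumors. *Rara* and *Top2a*, which come next, were not raised in it: *Rara* was at 36.3 CPM in N-8 and at 20.4 to 35.7 in the not raised tumors, and *Top2a* was at 132 CPM against 66.2 to 358.

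N-8 and N-9, but not N-17, shared a further island at *Tns4* and *Smarce1*. *Smarce1*, a subunit of the SWI/SNF chromatin remodeling complex, was at 2103 CPM in N-8, 1989 in N-9 and 41.6 in N-17, against 58.6 to 99.3 CPM in the not raised tumors. *Tns4*, a focal adhesion gene, was at 8372 CPM in N-8 and 3226 in N-9, against 207 in N-17 and 25.5 to 414 in the others, but it reached 3125 CPM in a RhoC tumor. N-9 also had the hair follicle keratin gene *Krt27* at 450 CPM, which no other of these 8 tumors had above 1.78 CPM.

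**Figure D2:**
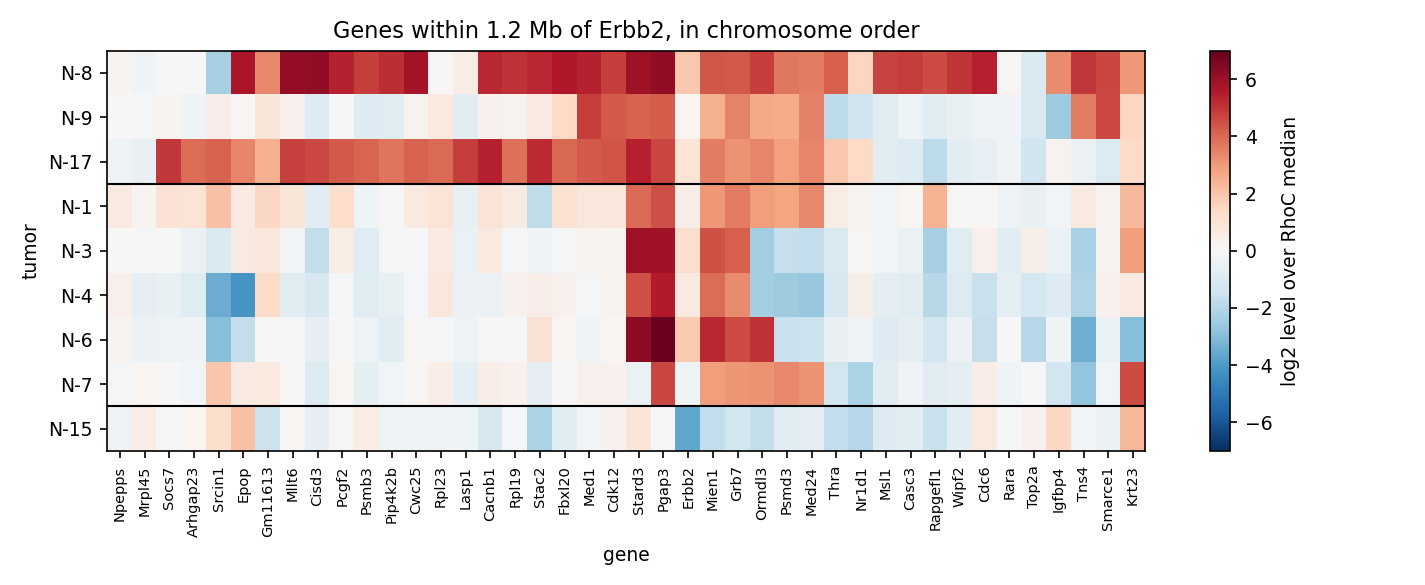
Log2 level of each gene within 1.2 Mb of *Erbb2* in 9 control tumors, relative to the median of the 12 RhoC tumors, with genes in chromosome order and tumors in rows (raised, not raised, N-15). The 3 raised tumors share the columns *Med1* and *Cdk12*, N-8 has 31 genes at 4-fold or more and N-9 has 11.

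The genes beside *Erbb2* were high in raised and not raised tumors alike. *Grb7*, an adaptor protein that binds receptor kinases, was at 2033, 1170 and 924 CPM in the raised tumors and at 1241, 1859, 1040, 2421 and 892 CPM in N-1, N-3, N-4, N-6 and N-7, against 42.1 in N-15. *Pgap3*, a gene for processing lipid-anchored proteins, was at 374 to 1460 CPM in the raised and 451 to 2344 CPM in the not raised tumors. *Mien1* was at 317 to 1132 CPM and 427 to 2124 CPM. *Stard3*, a cholesterol transfer gene, was at 657 to 2259 CPM in the raised tumors and at 566 to 2867 CPM in 4 not raised tumors, but at 26.8 CPM in N-7. The groups overlapped in each of these genes.

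*Med24*, a second Mediator subunit in the window, was at 1543, 1501 and 1371 CPM in N-8, N-9 and N-17. Of the not raised tumors, N-1 had 1316 CPM and N-7 had 1118 CPM, whereas N-3, N-4 and N-6 had 39.1, 20.5 and 44.8 CPM. The groups did not overlap, but 2 not raised tumors shared nearly the whole level. *Psmd3*, a proteasome subunit gene beside it, was at 4417, 2088 and 2507 CPM in the raised tumors, 2297 in N-1 and 3506 in N-7, against 61.0 to 117 CPM in the other not raised tumors.

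The other 3 genes named above for their fold lay more than 2 Mb away. *Cnp*, a myelin enzyme gene 2.14 Mb distal to *Erbb2*, was at 330, 1347 and 80.6 CPM in N-8, N-9 and N-17 and at 13.2 to 34.0 CPM in the not raised tumors, but at 89.4 in N-15 and up to 341 CPM in a RhoC tumor. *Dhx58*, an antiviral RNA sensor gene, was at 37.5, 209 and 37.6 CPM against 6.41 to 30.7 CPM, but at 69.3 in N-15 and up to 117 CPM in a RhoC tumor. *Gfap*, an intermediate filament gene, was at 1.42, 1.45 and 11.5 CPM against 0.254 to 1.05 CPM, with up to 34.5 CPM in a RhoC tumor. In N-9, 12 mapped genes from *Eif1* to *Kat2a* were at 4-fold or more over the RhoC median. Of these, N-1 shared *Eif1*, *Jup*, *P3h4* and *Nt5c3b*, N-7 shared the same 4 and *Hap1*, and N-8 shared only *Cnp*.

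**Figure D3:**
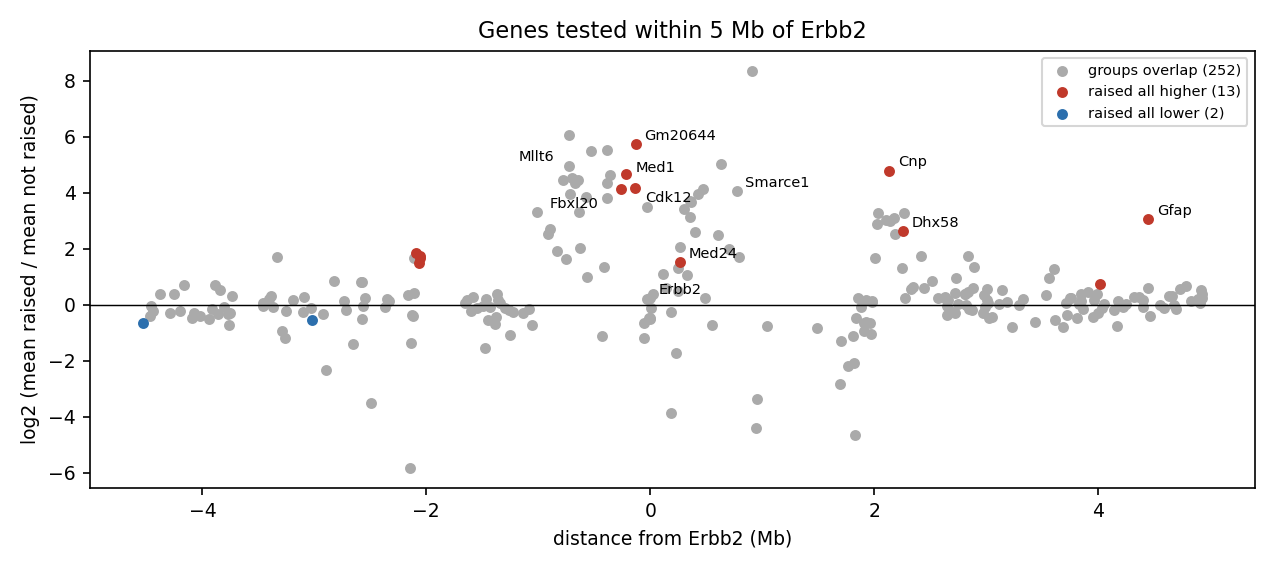
Log2 ratio of the mean level in raised over not raised tumors for each of the 267 window genes, by distance from *Erbb2* in Mb, where red points are the 13 genes with all raised tumors above all others and blue points are the 2 with all raised tumors below. The ratio is 4.65 for *Med1*, 4.18 for *Cdk12* and 0.24 for *Erbb2*.

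Genes within 1.2 Mb of *Erbb2* took 7.32% of all counts in N-8, 2.31% in N-9 and 4.72% in N-17. They took 0.637% to 1.76% in the not raised tumors, 0.339% in N-15 and 0.287% to 0.815% in RhoC tumors. Total counts of the 8 tumors ranged from 47552423 to 100741339, and N-8 was the deepest. The mean log2 total was 0.45 higher in the raised tumors (exact permutation test over 56 labelings, two-sided, p = 0.0536, where the smallest p the design allows is 0.0179). When each tumor was left out, the difference ran from 0.26 without N-8 to 0.58 without N-17, with exact permutation p from 0.0476 (without N-17, the smallest that 2 tumors against 5 allow) to 0.190 (without N-8). The sources used here name no sequencing batch, and the groups could not be split by one.

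Outside the window, 0 of 20261 genes (0%) had an adjusted p under 0.05 in edgeR's quasi-likelihood test, and 769 (3.8%) had an unadjusted p under 0.05, of which 592 were higher and 177 lower in raised tumors. The smallest adjusted p was 0.473. limma voom also called 0 genes (652 at an unadjusted p under 0.05), whereas DESeq2's Wald test called 67, with 58 higher and 9 lower. Leaving out N-9 gave 17 genes, leaving out N-17 gave 2, and leaving out any other tumor gave 0. In simulated counts for 3 and 5 tumors the same edgeR test recovered 36 of 100 genes changed 4-fold and 100 of 100 changed 16-fold. The simulation gave every gene the same dispersion (0.328), changed only genes over 5 CPM and gave all 3 raised tumors the same fold. It does not cover genes that differ among the raised tumors, such as *Sez6* (log2 fold change 10.08, adjusted p = 0.473 by edgeR). Without overlap, 299 genes outside the window were higher in the raised tumors and 174 were lower. No gene outside the window is therefore described as changed by the main test, and values are given instead.

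The 10 genes with the smallest p that were higher in raised tumors were *Pdk4*, *Scube1*, *Pm20d1*, *Pcbp3*, *Sez6*, *Peg10*, *Cntn2*, *Pcsk1*, *Igsf11* and *Rpl19-ps6*, all with an adjusted p of 0.473 in edgeR's test. DESeq2 called all 10, with adjusted p from 1.25e-09 for *Sez6* to 0.00016 for *Rpl19-ps6*, and edgeR without N-9 called *Sez6*, *Cntn2*, *Pcsk1*, *Igsf11* and *Rpl19-ps6*. *Pdk4*, a kinase that restrains glucose oxidation, was at 22.3, 165 and 128 CPM in N-8, N-9 and N-17 and at 3.28 to 10.5 CPM in the not raised tumors (log2 fold change 3.71, SE 0.60). *Scube1*, a secreted glycoprotein gene, was at 46.1, 33.2 and 43.3 CPM against 3.8 to 10.7 CPM (log2 fold change 2.19, SE 0.36), although N-15 had 67.1 CPM and the RhoC median was 23.5 CPM. *Pcbp3*, an RNA-binding protein gene, was at 11.9, 10.2 and 10.2 CPM against 0.849 to 3.01 CPM, and *Pm20d1*, a secreted enzyme gene of lipidated amino acids, was at 2.12, 6.37 and 2.40 CPM against 0.150 to 0.489 CPM. The groups did not overlap in these 4 genes.

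The others were higher in N-8 and N-17 than in N-9. The groups did not overlap in *Peg10*, *Cntn2* and *Pcsk1* either, but overlapped in *Sez6*, *Igsf11* and *Rpl19-ps6*. *Sez6*, a neuronal membrane protein gene elsewhere on chromosome 11, was at 272 CPM in N-8 and 259 in N-17, against 0.284 in N-9 and at most 0.499 CPM in the not raised tumors. Its neighbour *Pipox* was at 11.9 and 9.98 CPM in the same tumors, 1.81 in N-9 and 0.924 to 1.55 in the others, whereas *Phf12* on the other side was at 46.0, 58.6 and 49.4 CPM against 36.7 to 64.1 CPM. *Igsf11*, a cell adhesion gene, was at 34.3 and 24.7 CPM in N-8 and N-17, 0.460 in N-9 and 0.0868 to 0.798 in the not raised tumors. *Cntn2*, a neural adhesion gene, was at 35.6, 1.47 and 10.6 CPM against 0.506 to 1.11 CPM, and *Pcsk1*, a prohormone convertase gene, was at 33.2, 0.284 and 3.23 CPM against 0.126 to 0.235 CPM. *Peg10*, an imprinted gene derived from a retrotransposon, was at 195, 33 and 255 CPM against 2.11 to 13.2 CPM (log2 fold change 4.29, SE 0.81). Its imprinted neighbour *Sgce* was at 20.7, 4.67 and 17.2 CPM against 2.41 to 8.39 CPM.

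The 10 genes with the smallest p in the other direction were *Gm18562*, *Gpr137c*, *Mertk*, *Zc3h6*, *Gpr135*, *Greb1l*, *Tmem17*, *Baiap2l1*, *Slc26a2* and *Tet1*, with adjusted p between 0.740 and 0.998 in edgeR's test. DESeq2 called *Gm18562*, *Gpr137c*, *Gpr135* and *Tmem17* of these. Except for *Gm18562*, they differed less than 4-fold. *Mertk*, a receptor kinase by which macrophages clear dying cells, was at 13.3, 16.8 and 21.5 CPM in the raised tumors and 25.5 to 45.5 CPM in the others (log2 fold change -1.05, SE 0.30), with 22.2 in N-15. *Tet1*, an enzyme that oxidizes methylated cytosine, was at 5.26, 15 and 9.32 CPM against 19.7 to 30.1 CPM (log2 fold change -1.24, SE 0.38). *Slc26a2*, a sulfate transporter gene, was at 73.6, 118 and 103 CPM against 144 to 214 CPM, and *Baiap2l1*, a membrane-bending adaptor gene, was at 13.6 to 22.8 CPM against 24.1 to 53.7 CPM. *Gpr137c* was at 4.15 to 9.96 CPM against 15.6 to 41.6 CPM. The groups did not overlap in these 5 genes. *Gm18562*, a pseudogene, was below 0.03 CPM in the raised tumors and also in N-7, and at 1.33 to 4.68 CPM in the other not raised tumors.

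**Figure D4:**
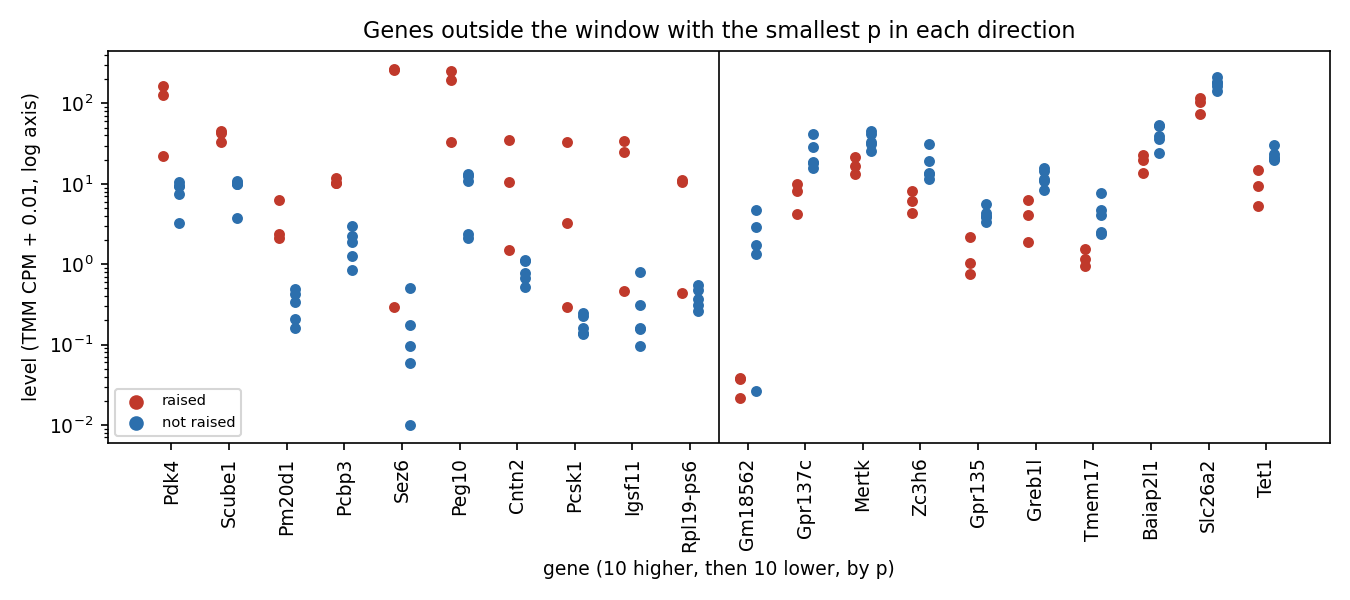
Level of the 20 genes outside the window with the smallest p, 10 higher and 10 lower in raised tumors, as CPM + 0.01 on a log axis with a point for each of the 8 tumors. *Pdk4*, *Scube1*, *Pm20d1* and *Pcbp3* are higher in all 3 raised tumors, while *Sez6* and *Igsf11* are high in 2 of them.

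Several pseudogene copies of the block genes elsewhere in the genome were high in the same tumors as those genes. Transcripts of the 1972 tested pseudogenes outside the window were aligned to the coding transcripts of window genes, and 38 matched 1 of 14 such genes over at least 50% of their length at 90% identity or more. In 15 of them the matched gene was at least 4-fold above the not raised mean in some raised tumor. Of these 15, 12 were at least 4-fold higher in the same raised tumors and in no other raised tumor. The remaining 3, *Gm4875*, *Gm6276* and *Rpl19-ps3*, were 4-fold higher in no raised tumor. The 15 and the 12 include *Gm14208*, which matched *Cdk12*. The choice of tumors by *Cdk12* placed it among the 15, so its part in the 12 is a description. The other 23 pseudogenes matched genes under 4-fold on this scale and were themselves under 4-fold, but 15 of them are copies of *Eif1*, a translation initiation factor gene for which the scale hides a difference between tumors. *Eif1* was at 3378 CPM in N-9 and also at 2663 in N-1 and 3207 in N-7, against 129 to 228 CPM in the other 5 tumors. Its copy *Gm16378* was at 8.98 CPM in N-9, 8.02 in N-1 and 8.69 in N-7, against 0.294 to 0.607 CPM in the others. Pseudogene counts are uncertain, since reads from near-identical copies can be assigned to either. The share of reads so assigned was not tested.

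*Rpl19-ps11* on chromosome 8 and *Rpl19-ps6* on chromosome 15 matched *Rpl19* at 99.8% and 98.3% identity. *Rpl19-ps11* was at 34.0 CPM in N-8 and 21.9 in N-17, against 0.974 in N-9 and 0.651 to 1.40 CPM in the not raised tumors. *Rpl19-ps6* was at 11.2 and 10.6 CPM in N-8 and N-17, against 0.433 in N-9 and 0.252 to 0.543 CPM. Copies of *Smarce1* instead followed N-8 and N-9: *Smarce1-ps1* was at 11 and 7.14 CPM in these, against 0.188 in N-17 and 0.252 to 0.390 CPM in the not raised tumors. *Gm9794*, a copy of *Rpl23*, was at 24.1 CPM in N-17 alone, against 1.25 in N-8 and 2.12 in N-9. *Gm49070*, a copy of *Msl1*, was at 9.03 CPM in N-8 alone, against 0.176 and 0.216 CPM in N-9 and N-17. *Gm14208*, which matched *Cdk12* at 92.4% identity, was at 0.289, 0.189 and 0.346 CPM against 0 to 0.0543 CPM, but it matches the gene that chose the tumors and is low enough to have passed the filter only through the raised tumors, so its values are a description.

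The following stretches of 120 bases set these copies beside the coding sequence of the window gene. They come from GENCODE M21 transcripts on GRCm38, and capitals mark the bases that differ within each pair. The *Rpl19* stretch holds bases 72 to 191 of the coding sequence and has 1 difference, G120A, counted from 1 at the start of the stretch with the base of the window gene first. The *Smarce1* stretch holds bases 841 to 960 and has 8 differences. The identity of *Smarce1-ps1* over its 1077 aligned bases was 98.3%. Each stretch was the first with the most differences in the aligned coding bases, so it differs more than the whole by choice.
Rpl19: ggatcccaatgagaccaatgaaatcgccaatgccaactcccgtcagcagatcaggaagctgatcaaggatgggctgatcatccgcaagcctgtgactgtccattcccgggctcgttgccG
Rpl19-ps11: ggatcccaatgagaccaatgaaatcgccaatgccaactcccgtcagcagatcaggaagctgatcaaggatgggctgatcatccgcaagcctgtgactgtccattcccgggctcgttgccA
Smarce1: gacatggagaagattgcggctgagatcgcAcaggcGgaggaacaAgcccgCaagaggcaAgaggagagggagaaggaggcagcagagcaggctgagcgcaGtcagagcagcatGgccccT
Smarce1-ps1: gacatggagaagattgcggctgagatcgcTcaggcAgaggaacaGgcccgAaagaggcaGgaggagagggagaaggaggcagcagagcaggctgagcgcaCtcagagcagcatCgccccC

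**Figure D5:**
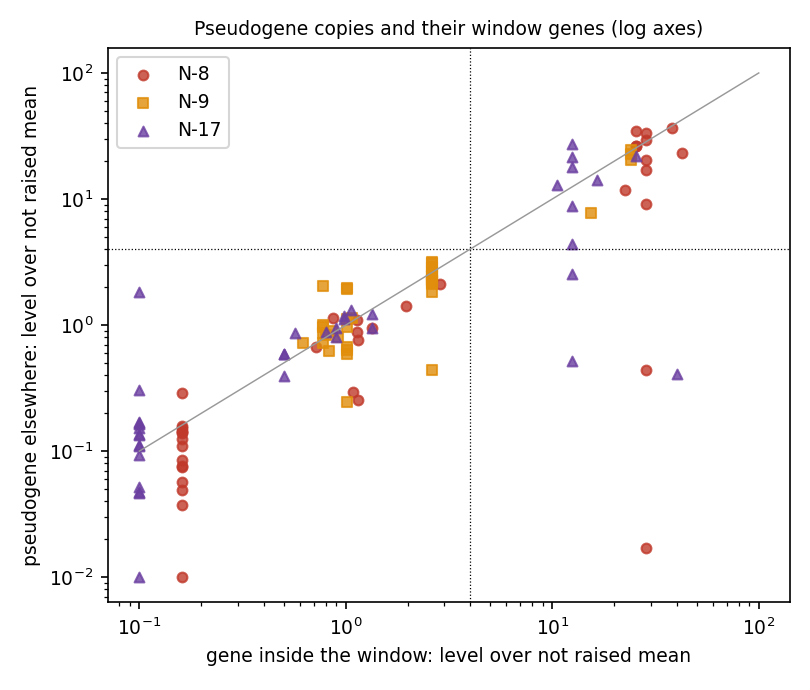
Level of each of the 38 matched pseudogenes (vertical) and of its window gene (horizontal) in N-8, N-9 and N-17, each over its mean in the 5 not raised tumors on log axes, with dotted lines at 4-fold and pseudogene values under 0.01 drawn at 0.01. Of the 28 points right of the vertical dotted line, 23 lie above the horizontal one, and none of the 86 points left of it does, where the points of *Eif1* copies are set against a mean that N-1 and N-7 raise. The 28 and the 23 include the points of *Gm14208*, whose window gene *Cdk12* chose the tumors.

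The partners of *Cdk12* and *Med1* outside the window did not pass the test. *Ccnk*, the cyclin of Cdk12, was at 34.1, 38.4 and 33.1 CPM in N-8, N-9 and N-17 and at 28.9 to 57.4 CPM in the not raised tumors (log2 fold change -0.13, SE 0.29). *Cdk13*, the closest relative of Cdk12, was at 161, 166 and 125 CPM against 133 to 249 CPM (log2 fold change -0.27, SE 0.27). Of 12 RNA polymerase II kinases and cyclins 0 were called, and the median log2 fold change was -0.15, beside 0.01 over all genes tested outside the window. Of the 31 Mediator subunits outside the window 0 were called, with a median of -0.07, which was 0.02 without N-17. *Ccnc*, another cyclin of the first list, was at 54.2, 60.6 and 33.1 CPM in N-8, N-9 and N-17 and 42.7 to 173 CPM in the others. The lowest p among the Mediator subunits belonged to *Med14*, a scaffold subunit, at 156, 185 and 146 CPM against 166 to 280 CPM, and to *Cdk8*, the kinase of the Mediator kinase module, at 53.4, 93.8 and 56 CPM against 76.3 to 125 CPM.

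Genes of DNA damage response and homologous recombination, in which Cdk12 is known to sustain transcription, gave 0 calls among 29 outside the window. Their median log2 fold change was -0.21, which was -0.08 without N-3, and 6 of the 29 lay above 0. *Brca2* was at 30.5, 44.2 and 23.6 CPM in the raised tumors and 24.2 to 74.8 CPM in the others (log2 fold change -0.56, SE 0.38), and *Rbbp8*, an end resection gene, was at 29.3, 35.5 and 23.9 CPM against 23.9 to 52.9 CPM. *Brca1*, which lies in the window, was at 21, 20.5 and 15.6 CPM against 7.77 to 43.8 CPM. Of 34 mitosis and replication genes outside the window 0 were called, the median was -0.41, which was -0.06 without N-3, and 2 lay above 0. *Ccna2*, an S phase cyclin, was at 73.5, 79.1 and 39.1 CPM against 38.6 to 229 CPM, where N-3 and N-7 gave the 2 highest values. *Birc5*, a mitotic survival gene, was at 10.5 to 17.4 CPM against 6.26 to 50.1 CPM.

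ErbB receptors and ligands gave 0 calls of 13 outside the window and a median of 0.57, which was -0.11 without N-8. *Hbegf*, a ligand of the EGF receptor, was at 103, 47.2 and 39.8 CPM in N-8, N-9 and N-17 and at 10.3 to 35.3 CPM in the not raised tumors (log2 fold change 1.61, SE 0.47, adjusted p = 0.998 by edgeR), but the RhoC median was 113 CPM. *Nrg4* was at 7.29 CPM in N-17 and at most 0.911 CPM in the other 7 tumors. The 17 feedback genes of ERK signaling had 0 calls and a median of 0.29 (-0.08 without N-8), with *Spred2* at 255, 57.9 and 103 CPM against 58.2 to 97.2 CPM and *Dusp5* at 36.9 to 78.5 CPM against 9.82 to 62.6 CPM. Among 18 hormone receptor and luminal regulators outside the window 0 were called and the median was 0.37, which was 0.06 without N-17. *Prlr*, the prolactin receptor, was at 86.2 to 182 CPM in the raised tumors, and at 772 CPM in N-4, 498 in N-6 and 142 to 168 CPM in the other not raised tumors. *Vdr*, the vitamin D receptor, was at 151 to 311 CPM against 38.9 to 162 CPM.

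Of the other lists, 0 of 23 p53 targets (median 0.03), 0 of 26 type I interferon genes (0.36), 0 of 18 antigen presentation genes (0.44) and 0 of 22 cytosolic ribosomal protein genes (0.13) were called. When each tumor was left out these medians ran from -0.15 to 0.32, from 0.18 to 0.78, from -0.008 (without N-8) to 0.80 and from -0.20 (without N-9) to 0.35. *Oas3* was at 52.7, 2.61 and 70.5 CPM in N-8, N-9 and N-17, against 3.27 to 39.3 CPM, and *Ciita*, the regulator of MHC class II, was at 19.3, 3.71 and 18.6 CPM in N-8, N-9 and N-17, against 4.51 to 10.02 CPM. In both, N-9 lay below every not raised tumor. *Parp14* was at 169, 51.6 and 156 CPM against 43.2 to 129 CPM, and *Tapbp*, a gene of peptide loading, was at 249, 106 and 220 CPM against 78.7 to 182 CPM, so that N-9 lay among the not raised tumors. *Aen* and *Polk* were the p53 targets with the smallest p, at 18.3 to 29.6 CPM against 9.49 to 24.4 CPM and at 19.8 to 28.7 CPM against 24.2 to 54.8 CPM. *Rpl13*, a ribosomal protein gene, overlapped at 144 to 302 CPM against 74.6 to 204 CPM. Over all 25 lists, 361 genes lay outside the window, of which 2 (0.554%) were higher and 2 (0.554%) lower without overlap, beside 1.48% and 0.859% of all genes outside the window. They were *Hbegf*, *Vwf*, *Mertk* and *Nbn*.

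*Rhoc* was at 172, 28.0 and 95.2 CPM in the raised tumors and 26 to 145 CPM in the others (log2 fold change 0.71, SE 0.66). *Gata4* was at 29.8 CPM in N-8, 0 in N-9 and 7.49 in N-17, and at 36.4 CPM in N-3 and no more than 0.0181 CPM in the other not raised tumors. Neither gene divided the groups, and the lack of the *Gata4* loxP allele, which of the 8 tumors is seen in N-17 alone, cannot be told apart from that tumor.

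Epithelial markers were present in all 8 tumors. The summed level of 10 luminal markers was 2242 to 4493 CPM in raised and 1863 to 6191 CPM in not raised tumors, and that of 10 basal markers was 1318 to 2595 CPM and 919 to 4260 CPM. These sums and their tests include markers that lie in the window (1 luminal, 2 basal, 2 squamous and 1 fibroblast gene), and the luminal sum of N-7 is mostly *Krt19*, at 4075 CPM. *Krt8* was at 196 to 555 CPM in raised and 179 to 345 CPM in not raised tumors, *Krt18* at 275 to 424 and 152 to 387 CPM, and *Myh11* at 6.02 to 36.0 and 2.77 to 18.7 CPM. Over 13 marker lists 0 genes outside the window were called, and the smallest p for a summed level was 0.0536 by an exact permutation test, for neutrophils (adjusted p = 0.696 over 13 lists). In bulk tissue, fewer cells of a type and less RNA per cell cannot be told apart.

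N-17 stood apart by markers of muscle and fat. The summed level of 12 skeletal muscle genes was 7138 CPM in N-17, against 3.32 and 4.16 in N-8 and N-9 and 1.74 to 641 CPM in the not raised tumors, where N-3 was highest. *Ckm*, muscle creatine kinase, was at 529 CPM in N-17, 38.7 in N-3 and at most 3.36 CPM in the other 6 compared tumors (up to 63.1 CPM in a RhoC tumor), and *Mybpc2* was at 336 and 41.4 CPM in N-17 and N-3. The summed level of 9 adipocyte genes was 1529 CPM in N-17 and 28.8 to 215 CPM in the other 7 tumors. *Plin4*, a lipid droplet gene, was at 311 CPM in N-17 and at most 2.80 CPM in the other 7, and *Cidec* at 42.8 and at most 0.231 CPM, while RhoC tumors reached 26 CPM of *Plin4* and 5.91 CPM of *Cidec*. Median log2 fold changes of 4.02 for the muscle list and 6.09 for the adipocyte list thus rest on N-17, and were -6.85 and -1.19 without it. *Pdk4*, a gene that muscle and fat also express, was at 22.3, 165 and 128 CPM in N-8, N-9 and N-17. The adipocyte sum was 54.3, 28.8 and 1529 CPM in these tumors. The part of muscle and fat cells in *Pdk4* was not tested.

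Neutrophil genes had positive log2 fold changes in all 9 members, with a median of 2.10 that was 0.86 without N-8. Their summed level was 314, 79.1 and 50.9 CPM in N-8, N-9 and N-17, and 20.5, 75.2, 18.6, 16.7 and 41.2 CPM in N-1, N-3, N-4, N-6 and N-7. N-8 was highest and N-3 lay above N-17, so the groups overlapped. *S100a9* was at 17.4, 5.81 and 1.92 CPM against 0.415 to 2.85 CPM, and *Csf3r*, the receptor of the neutrophil growth factor, at 46.2, 14.2 and 20.5 CPM against 4.09 to 17.3 CPM. *Csf3*, that growth factor, lies in the window beside *Med24* and was at 47.5, 74.6 and 152 CPM in the raised tumors. It was at 105 CPM in N-7 and at 0.0420 to 3.46 CPM in the other not raised tumors.

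Of the remaining lists, *Vwf*, an endothelial gene, was at 51.0, 49.7 and 80.5 CPM against 11.1 to 38.4 CPM (log2 fold change 1.42, SE 0.44, adjusted p = 0.998 by edgeR), while *Cldn5* was at 36.5 CPM in N-17 and 2.54 to 7.73 CPM in the others. Summed endothelial levels were 193 to 1071 CPM and 255 to 597 CPM. Fibroblast sums were 2054, 382 and 7909 CPM in N-8, N-9 and N-17 and 1143 to 6233 CPM in the not raised tumors, with *Postn* at 71.7 to 451 CPM against 90.3 to 1299 CPM and *Fbln1* at 6.75 to 55.1 CPM against 27.4 to 59.7 CPM. Sums of the mesenchymal core were 341 to 2838 CPM and 738 to 5643 CPM, where *Snai2* was at 52.8 CPM in the spindle cell tumor N-1 and at most 5.98 CPM in the other 7 (up to 47.7 CPM in a RhoC tumor), and *Twist2* at 4.65 CPM in N-17 and at most 1.11 CPM in the other 7 (up to 15.3 CPM in a RhoC tumor). Squamous sums were 25.5 to 441 CPM and 17.3 to 1858 CPM, with *Sprr1a* at 128 CPM and *Dsg3* at 843 CPM in N-1. Milk protein sums were 4320 to 19730 CPM and 785 to 20111 CPM, with *Csn1s1* at 5615, 63.1 and 3271 CPM in the raised tumors and 0.896 to 1765 CPM in the others, and *Wap* at 0.0231 to 0.622 CPM against 0 to 7.86 CPM. Macrophage sums were 507 to 1747 CPM and 545 to 1819 CPM with *Cd14* at 114 to 475 CPM against 50.3 to 321 CPM, T cell sums were 7.80 to 26.8 CPM and 13.8 to 37.6 CPM with *Il7r* and *Cd3d* at 18.5 CPM or less in each of the 8 tumors, and B and plasma cell sums were 1116 to 1570 CPM and 543 to 2064 CPM with *Ighm* at 28.8, 0.811 and 26.8 CPM against 3.15 to 14.2 CPM and *Pax5* at most 1.85 CPM.

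Of the 299 genes outside the window that were higher in all raised tumors, chromosome 7 held 58 (3.79% of its 1532 tested genes). Chromosome 17 held 31 (3.17% of 979), beside 1.48% of all genes outside the window. Those on chromosome 7 included *Bcl3*, *Relb*, *Vasp*, *Akt2*, *Tnfrsf22* and *Tnfrsf23*. *Tnfrsf23*, a decoy receptor for a death ligand, was at 306, 103 and 71.3 CPM in N-8, N-9 and N-17 against 25.6 to 56.9 CPM, and its neighbour *Tnfrsf22* at 44.1, 13.9 and 20.1 CPM against 6.85 to 10.8 CPM. These genes were chosen after their values were seen. For genes with a mean log2 CPM over 1, the median difference from the not raised mean was 0.60 on chromosome 7 in N-9, 0.28 in N-8 and 0.15 in N-17, where N-1, N-6 and N-7 also had 0.15 to 0.16. In N-9 it was also 0.51 on chromosome 17, 0.52 on chromosome 8 and 0.36 on chromosome 6. N-8 had 0.48 on chromosome 2 and N-17 had 0.38 on chromosome 15. Among the not raised tumors, which are part of the reference mean, N-6 had -0.46 on chromosome 19 and 0.44 on chromosome 10, and N-3 had 0.35 on chromosome 19, 0.31 on chromosome 12 and -0.30 on chromosome 10. Whether these shifts follow DNA copies was not tested.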

How the data were processed

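Total RNA from mammary tumors was sequenced from stranded, ribosomal RNA-depleted libraries. According to the labels and the study's methods, reads were trimmed with Trim Galore 0.5.0, aligned with STAR 2.6.0c to GRCm38.p6 and counted with HTSeq 0.6.1p2, keeping uniquely mapping reads and discarding those on more than 1 gene. The strand setting and the release of the annotation were not given in the sources used here. The authors deposited raw counts per gene for each tumor, and these counts were used for every test. The authors also deposited FPKM values, which scale by gene length and depth, and these were used only to compare levels of *Med1* and *Cdk12*. Columns of their own comparison of the cohorts (fold changes and p-values) were not used. Gene positions were those of the deposited table or, for genes absent from it, GENCODE M21.

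TMM factors were computed on all 21 tumors with edgeR 4.0.16 (R 4.3.3). Raised and not raised tumors were compared with edgeR's quasi-likelihood test after filterByExpr, two-sided and without covariates, with Benjamini-Hochberg adjustment over all 20528 tested genes. Log2 CPM values for chromosome medians and outliers used a prior count of 2. Standard errors were derived from the F statistic. The 267 window genes were part of this fit and of the adjustment, but no p of theirs is reported, since *Cdk12* chose the tumors. The tumors and the gene lists were chosen with earlier results of these data known. Genes are named in the window for their place beside *Erbb2*, or where raised and not raised tumors did not overlap and differed 4-fold, with the ends of such runs. Outside it, 10 genes a direction, ranked by p at a mean log2 CPM over 0, 2 a list, ranked likewise, *Ccnk*, *Cdk13*, *Rhoc* and *Gata4* are named, except for a few genes that are not reported here. Others, the per-tumor map, the pseudogene alignment (blastn 2.17.0+) and the chromosome medians were chosen after their values were seen. Alternatives were DESeq2 1.42.0, limma 3.58.1 voom, other filters, scalings and windows, all 21 tumors in the fit, N-15 added, 5 tumors with histology as a block, and each tumor left out. The test was tested on simulated data.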

Additional observations from a re-analysis of the deposited data

Results flagged for a closer look

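Among the 5 not raised tumors, 8 of 77 named genes (10.4%) had 1 tumor whose gap to the nearest other, relative to the whole range of log2 CPM, exceeded 0.71. Chance flags about 5% of groups, and the 3 raised tumors are too few for this check. *Cdk12*, which chose the tumors, was left out. N-1 had 3 of these. Its *Dsg3* level of 843 CPM was above the 11.2 to 20.7 CPM of the other 4, its *Scube1* level of 3.8 CPM was below those of the other 4, of which the highest was 10.7 CPM and its *Pdk4* level of 3.28 CPM was below 7.54 to 10.5 CPM. N-7 was low in *Gm18562* at 0.0166 CPM against 1.33 to 4.68 CPM. N-3 was high in *Gata4* at 36.4 CPM against at most 0.0181 CPM, and low in *Vdr* at 38.9 CPM against 127 to 162 CPM. N-6 was high in *Krt18* at 387 CPM against 152 to 183 CPM. N-4 was high in *Polk* at 54.8 CPM against 24.2 to 30.7 CPM. No cause of these was tested.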

How the results depend on the processing

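The count of genes called outside the window was 0 in the main test, 67 with DESeq2 (58 higher, 9 lower), 10 with all 21 tumors in the fit (10 higher) and 0 to 17 when each tumor was left out (17 without N-9, 2 without N-17, all higher, with 0 lower in each). Among them were 6 of the 12 pseudogenes that followed the block with DESeq2, 5 with all 21 tumors, 4 without N-9 and 2 without N-17. The cause of the differences between tools was not tested. The other scalings, filters, the window of 10 Mb, N-15 added, voom and the histology block gave 0. Window genes higher without overlap numbered 14 to 46 and those lower 2 to 12 when each tumor was left out, with 46 and 12 without N-9, 23 higher without N-1 and 5 lower without N-17, and those lower were 4 without N-3, 4 without N-6 and 4 without N-8. The log2 difference of total counts was 0.26 to 0.58. None of the 20 genes with the smallest p outside the window changed direction. With histology as a block, without N-1, N-4 and N-17, the log2 fold change changed sign for *Nrg4* (-0.51), *Sprr1a* (4.20), *Dsg3* (1.80), *Twist2* (-0.60), *Cldn5* (-0.64), *Plin4* (-0.39), *Mybpc2* (-2.48), *Ckm* (-5.72), *Il7r* (0.047) and *Cdk13* (0.082). With N-15 added it did for *Gata4* (-0.21), *Krt8* (-0.26) and *Krt18* (-0.019), and with voom for *Sprr1a* (1.13) and *Dsg3* (0.44). Leaving out 1 tumor gave ranges that cross 0 for *Sprr1a* (-7.20 to 4.23), *Dsg3* (-2.79 to 2.09), *Nrg4* (-0.51 to 4.40), *Myh11* (-0.34 to 1.67), *Twist2* (-0.45 to 2.24), *Cldn5* (-0.67 to 2.02), *Cidec* (-0.84 to 7.77), *Mybpc2* (-2.50 to 6.70), *Ckm* (-5.37 to 7.62), *Ccnk* (-0.212 to 0.066) and *Gata4* (-0.96 to 1.36), where N-17 turned 7 of them, N-1 *Sprr1a* and *Dsg3*, N-3 *Ccnk* and N-8 *Gata4*. No paired analysis was possible because raised and not raised tumors share no replicate number.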
